A study of Rattus norvegicus with 11 samples.

Results

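The genes described here encode tumour necrosis factor (Tnf) and the proteins closest to it in the pathway. They were the 10 rows of the deposited table, of 32623 genes, named Tnf, LOC103694380, Lta, Ltb, Tnfsf13b, Tnfrsf1a, Tnfrsf1b, Traf1, Traf2 and Tnfaip3. They were chosen by name, but with earlier results of these data known, and all 10 were found. The authors had listed LOC103694380 among the genes that differed between Nampt++ and Nampt+ samples in this sequencing. In a separate PCR experiment on another batch of rats, they described its difference between healthy and CIA rats as less obvious. They also described it there as not sensitive to changes in Nampt. LOC103694380, described in the table as tumor necrosis factor-like, was treated as a near-identical copy of Tnf, so both rows are given singly and summed. RNA was measured in 11 samples of peripheral white blood cells (WBCs) of male Wistar rats. Of these, 4 Nampt++ samples (about day 8) and 4 Nampt+ samples (about day 14) came from the same 4 rats with collagen-induced arthritis (CIA), injected with bovine type II collagen in incomplete Freund's adjuvant and boosted on day 7. The other 3 samples came from healthy controls, called normal. The authors assigned the CIA samples to Nampt++ or Nampt+ by their own PCR of Nampt, so time after immunisation and Nampt status cannot be told apart. Rats were 7 weeks old on arrival.

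TNF is made as a membrane-bound trimer that is cut off the surface of myeloid and lymphoid cells. It signals through TNFR1 (Tnfrsf1a), which most cells carry and which can lead to NF-kappa B activation or to cell death, and TNFR2 (Tnfrsf1b), which is largely found on leukocytes and endothelium and lacks a death domain. TRAF2 and TRAF1 are adaptors of these receptors, and A20 (Tnfaip3) is a ubiquitin-editing enzyme, itself induced by NF-kappa B, that dampens the signal. The lymphotoxins (Lta, Ltb) are relatives of TNF encoded beside it, and BAFF (Tnfsf13b) is a related ligand that keeps B cells alive. Blocking TNF is an established treatment of rheumatoid arthritis, the disease that CIA models.

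The table placed Lta, Tnf and Ltb next to each other on chromosome 20. Lta lay at chr20:4852496-4854677 on the plus strand and Tnf (ENSRNOG00000000837) at chr20:4855829-4858447 on the plus strand, 1151 bases further on. Ltb followed at chr20:4861335-4863198 on the minus strand, 2887 bases beyond Tnf. LOC103694380 (ENSRNOG00000055156) was listed 330942 bases from Tnf, at chr20:5189390-5192000 on the minus strand. Beside it, 2886 bases away, stood LOC103694381 at chr20:5184515-5186503 on the plus strand, described as lymphotoxin-beta. The second pair of rows thus lay at almost the same distance from each other as Tnf and Ltb, in the opposite orientation. LOC103694381 is not among the 10 genes and was added to Ltb after it was seen in the table. The build of these positions is not given in the sources used here. All rows are whole genes, so no value can be given to an exon or UTR.

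The 100 bases before the start of 4 of the genes are printed to show how the neighbours on chromosome 20 and the NF-kappa B target Tnfaip3 begin. They are RefSeq sequences of the GRCr8 assembly, another coordinate system than the table's, at chr20:3626585-3626684 (plus strand) for Tnf, chr20:3623427-3623526 (plus) for Lta, chr20:3634055-3634154 (minus) for Ltb and chr1:15543980-15544079 (minus) for Tnfaip3. Capitals mark matches to the NF-kappa B consensus, searched on both strands, or to TATAAA.
Tnf: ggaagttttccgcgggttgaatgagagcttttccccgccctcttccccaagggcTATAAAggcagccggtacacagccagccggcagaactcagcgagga
Lta: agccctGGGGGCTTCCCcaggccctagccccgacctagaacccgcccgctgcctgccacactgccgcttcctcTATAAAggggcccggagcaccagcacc
Ltb: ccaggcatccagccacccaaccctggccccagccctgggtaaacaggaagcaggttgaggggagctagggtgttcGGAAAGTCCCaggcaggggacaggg
Tnfaip3: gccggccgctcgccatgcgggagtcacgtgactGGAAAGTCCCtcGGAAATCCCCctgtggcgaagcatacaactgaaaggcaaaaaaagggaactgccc
A promoter was found for 9 of the 10 genes; LOC103694380 was not matched. Within 250 bases of the start, the NF-kappa B consensus was present in 3 of the 9 (Tnfaip3, Lta and Ltb) and in 6.33% of all 33469 promoters of that length. TATAAA was present in 2 of the 9 (Tnf and Lta) and in 12.9% of all promoters. In Tnf it stood 46 to 41 bases before the start and in Lta 27 to 22 bases before it. These matches are of letters only and say nothing of binding in these cells.

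Values are FPKM, in which a gene's fragments are divided by transcript length and library size so that levels of different genes can be compared, and groups were tested on the deposited read counts with edgeR's quasi-likelihood test. Calls follow the thresholds of the study: a mean FPKM more than 2 times, or less than 0.5 times, that of the other group, with an unadjusted p below 0.05. Total counts lay between 65340027 and 85819418 per sample, so the number of rats rather than depth limits the precision. Haemoglobin genes took 6.84% to 42.8% of the counts, least in the Nampt++ sample of rat 1 and most in the Nampt+ sample of rat 2. Of the 8 neutrophil markers 7 had a mean FPKM of at least 1, and their sum was 2063 to 13919 in normal, 2874 to 40034 in Nampt++ and 3653 to 15401 in Nampt+ samples, with the highest sum in the Nampt++ sample of rat 1. The 6 monocyte markers in the table summed to 4272 to 10548, 5725 to 12745 and 5432 to 13791 in the same order. The extraction text of the labels speaks of retinas, whereas the 8 retina markers summed to at most 1.93 FPKM in any sample.

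By mean FPKM over the 11 samples, Tnfaip3 (249) was the most abundant of the genes, followed by Tnfrsf1b (147), Ltb (118), Tnfrsf1a (50.8), Tnf (35.4), LOC103694380 (30.9), Traf1 (25.1), Traf2 (18.5), Lta (1.9) and Tnfsf13b (0.304). The range over samples of each gene overlapped that of its neighbour in this order, except that Traf2 (11.1 to 25.7) lay above Lta (0.791 to 5.25) and Lta above Tnfsf13b (0 to 0.659). The receptor transcript with the higher level was therefore that of TNFR2, and the ratio of Tnfrsf1b to Tnfrsf1a FPKM was above 1 in all samples, from 1.32 to 7.06. Traf2 varied least, by 2.31 times between its lowest and highest sample. LOC103694380 varied most among the 9 genes detected in every sample, by 12.7 times.

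**Figure D1:**
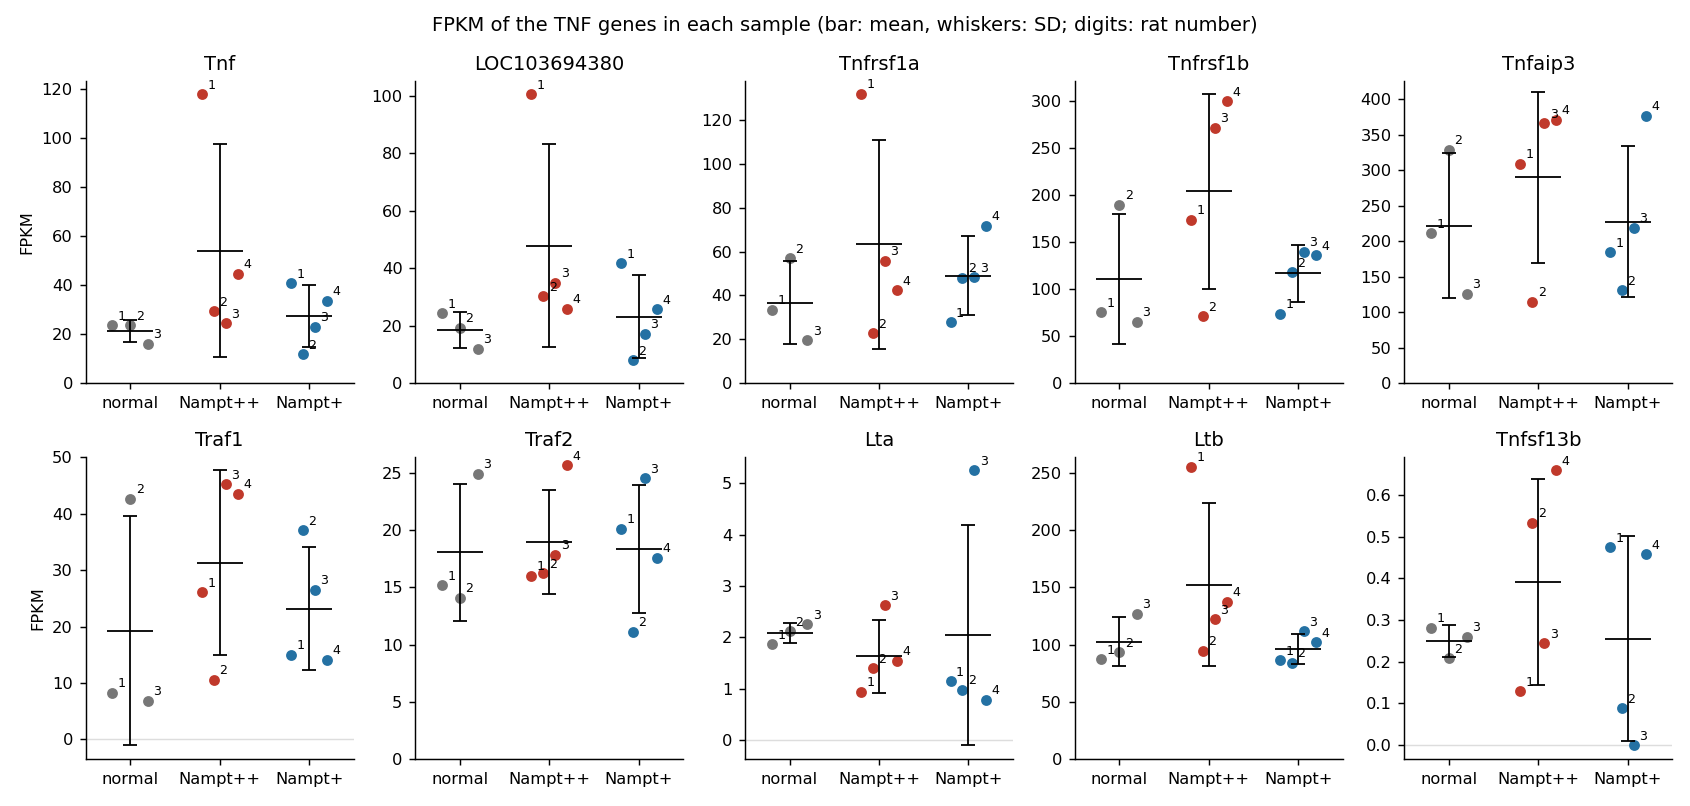
FPKM of each of the 10 genes (vertical axes, each from 0 upward with its own scale) in normal, Nampt++ and Nampt+ samples. Points are samples with the rat's number, horizontal bars are means and whiskers SDs; the Nampt++ sample of rat 1 is the highest for Tnf, LOC103694380, Tnfrsf1a and Ltb.

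Tnf transcripts stood higher in Nampt++ than in normal samples. In FPKM every Nampt++ sample exceeded every normal sample, but the difference did not pass the test. Tnf FPKM was 23.7, 23.7 and 16.1 in normal rats 1 to 3, and 118, 29.5, 24.4 and 44.6 in the Nampt++ samples of rats 1 to 4. LOC103694380 had 24.3, 19.3 and 12 in normal samples and 100.5, 30.2, 34.9 and 26 in Nampt++ samples. In both rows the Nampt++ sample of rat 1 was far above the rest, and the lowest Nampt++ sample was only just above the highest normal sample. Haemoglobin took 20.2% and 7.8% of counts in the Nampt++ samples of rats 3 and 4, the lowest for Tnf and LOC103694380. It took 30.1% and 30.9% in normal rats 1 and 2. FPKM is scaled by a total that includes haemoglobin, so leaving it out would raise these normal samples more. Scaled that way, Tnf in normal rat 2 would exceed the Nampt++ sample of rat 3. LOC103694380 in normal rat 1 would exceed the Nampt++ sample of rat 4, so neither single row would stay apart. In bulk RNA, a change in the number of cells of a type and a change in RNA per cell cannot be told apart.

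Summed over both rows, which removes the division of reads between them but not any reads dropped or counted in both, FPKM was 48.0, 43.0 and 28.0 in normal samples, 218, 59.7, 59.3 and 70.6 in Nampt++ samples and 82.5, 19.7, 40.2 and 59.3 in Nampt+ samples. The means were 39.7 ± 10.4 (SD, n = 3), 102 ± 77.7 (SD, n = 4) and 50.4 ± 26.8 (SD, n = 4). Nampt++ and normal samples did not overlap, while Nampt+ samples reached from below the lowest normal sample into the Nampt++ range. The mean was 2.57 times higher in Nampt++ than in normal samples, with a fitted log2 fold change of 1.22 (SE 0.54; edgeR, p = 0.0536; exact permutation test, two-sided, p = 0.0857). For the single rows the log2 fold change was 1.2 (SE 0.56) in Tnf (edgeR, p = 0.0630; exact permutation test, p = 0.143) and 1.25 (SE 0.55) in LOC103694380 (edgeR, p = 0.0542; exact permutation test, p = 0.0571).

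Of the 9 genes tested, 0 were called between Nampt++ and normal samples, against 77 of 11219 genes in all (0.686%). With Benjamini-Hochberg adjustment of edgeR's p over all genes, 0 of the 9 and 0 of 11219 (0%) passed, and at an unadjusted p under 0.05 there were 0 of the 9 and 176 of all genes. In FPKM, groups did not overlap in 2 of the 9, Tnf and LOC103694380, and in 1.1% of all genes. These 2 rows could share reads and are not separate observations. With haemoglobin left out of the total neither row would stay apart, while their sum would. The median log2 fold change of the 9 was 0.52 beside 0.00 over all genes tested, with 8 fitted higher and 1, Lta, fitted lower. Much of the difference in Tnf rested on rat 1: without its Nampt++ sample the log2 fold change of the sum was 0.60, short of the threshold. DESeq2 gave 1.24 for the sum and limma on log2(FPKM + 1) gave 1.13, both past the unadjusted threshold. The sum was also called in edgeR with upper quartile scaling, with no filter or with all 3 groups in 1 fit, so the call turns on the tool, scaling, filter and fit.

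From Nampt++ to Nampt+ status, Tnf stood lower in all 4 rats, with same-numbered samples taken as one rat. Summed FPKM was 218 and then 82.5 in rat 1, 59.7 and 19.7 in rat 2, 59.3 and 40.2 in rat 3, and 70.6 and 59.3 in rat 4. The Nampt+ level was thus 0.378, 0.329, 0.678 and 0.840 times the Nampt++ level of the same rat, so the rats shared a direction but not a size, and a sign-flip permutation of 4 rats cannot give a p below 0.125, which it gave here. Without regard to the rat, the log2 fold change was -0.99 (SE 0.46; edgeR, p = 0.0629; exact permutation test, p = 0.229). It was -0.94 (SE 0.46) for Tnf and -1.04 (SE 0.50) for LOC103694380.

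With the rat as a replicate block, which the sampling of the same rats at both times allows, the sum was called. Its log2 fold change was then -0.86 in edgeR and -0.94 in limma on log2(FPKM + 1). LOC103694380 was called alone in these fits, at -0.97 in edgeR and -1.01 in limma. The authors had already listed this gene as differing between these same samples, so neither call is separate evidence. Tnf alone, at -0.75 in edgeR, passed on its unadjusted p but its ratio of means, 0.504, missed the fold of 2. Of all genes, 0.499% were called with the block in edgeR and 1.1% with it in limma, and the adjusted p of LOC103694380 was 0.9999 in both fits. Without the block, 0 of the 9 genes were called between Nampt+ and Nampt++ samples, against 0.642% of all genes. None of the 9 had an adjusted p under 0.05, as in all genes (0%), and 0 had an unadjusted edgeR p under 0.05, against 256 of all genes. In none of the 9 did the groups separate, against 0.41% of all genes. Leaving out the Nampt++ sample of rat 1 left a log2 fold change of the sum of -0.36.

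Nampt+ and normal samples overlapped for Tnf, with 1 Nampt+ sample below the normal range and 2 above it. The log2 fold change of the sum was 0.23 (SE 0.41; edgeR, p = 0.591; exact permutation test, p = 0.80), and it turned to -0.09 without the Nampt+ sample of rat 1 and to -0.07 without normal rat 3. Of the 9 genes 0 were called, against 0.497% of all genes, 0 passed after adjustment, as in all genes (0%), and 0 had an unadjusted edgeR p under 0.05, against 98 of all 11269 genes tested. In 0 of the 9 were the groups apart, against 0.444% of all genes. The 3 comparisons share samples, so their values are given side by side and not as separate evidence.

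**Figure D2:**
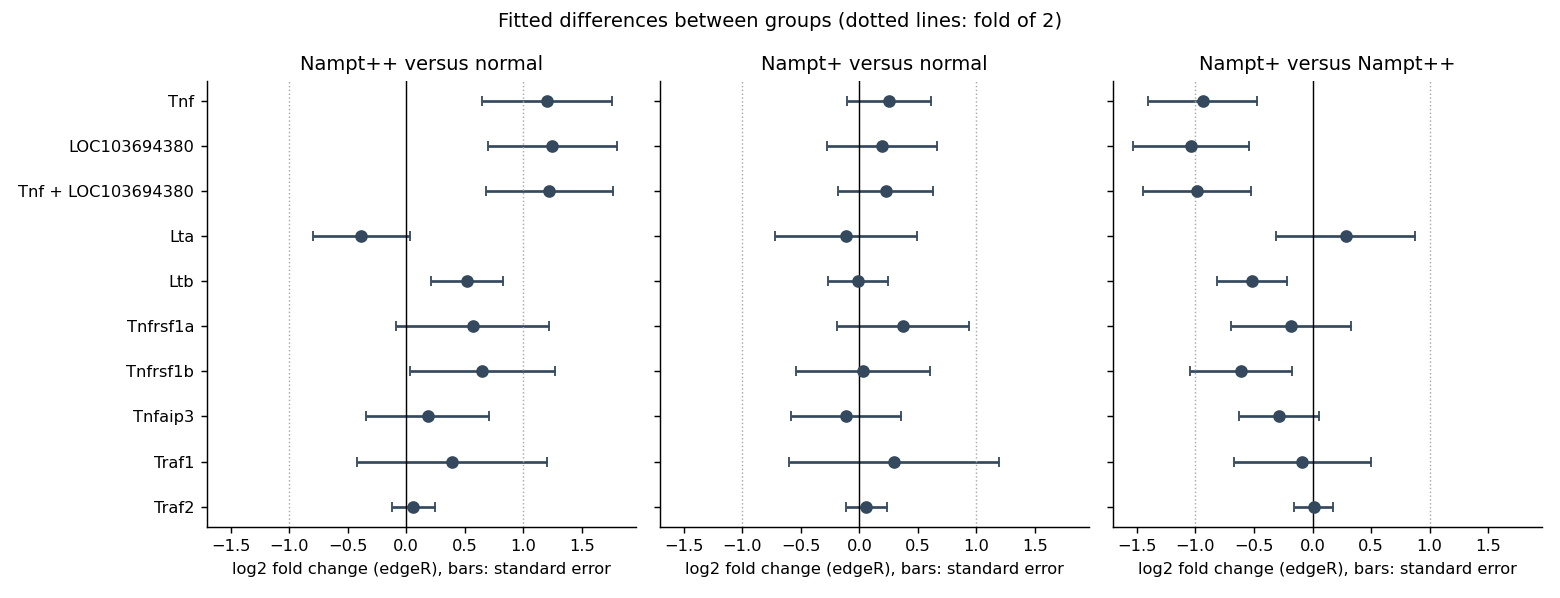
Fitted log2 fold changes (horizontal axis) of the 9 tested genes and of Tnf summed with its copy, in the 3 comparisons. Points are edgeR estimates, whiskers standard errors and dotted lines a fold of 2; Tnf and LOC103694380 lie near 1.2 and 1.25 between Nampt++ and normal samples and near -0.94 and -1.04 between Nampt+ and Nampt++ samples.

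The division of reads between Tnf and LOC103694380 varied between samples more than counting error allows. The copy took 36.7% of the reads of both rows in the Nampt++ sample of rat 4 (95% Wilson interval 35.6% to 37.7%) and 58.7% in that of rat 3 (57.7% to 59.7%), the extremes of the 11 samples, with a median of 44.7%. Both extremes were in 1 group, so the division did not follow the groups. The share of LOC103694381 in the reads of Ltb and LOC103694381 kept to 48.0% to 52.0%. These intervals cover counting error only. How reads that match both copies were assigned is not given in the sources used here, and its part in the shares was not tested. Across the 11 samples from 7 rats, on log2(FPKM + 1), Tnf and LOC103694380 had a Pearson r of 0.93 (Spearman 0.89), or 0.72 without the 2 samples farthest from the median of Tnf.

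**Figure D3:**
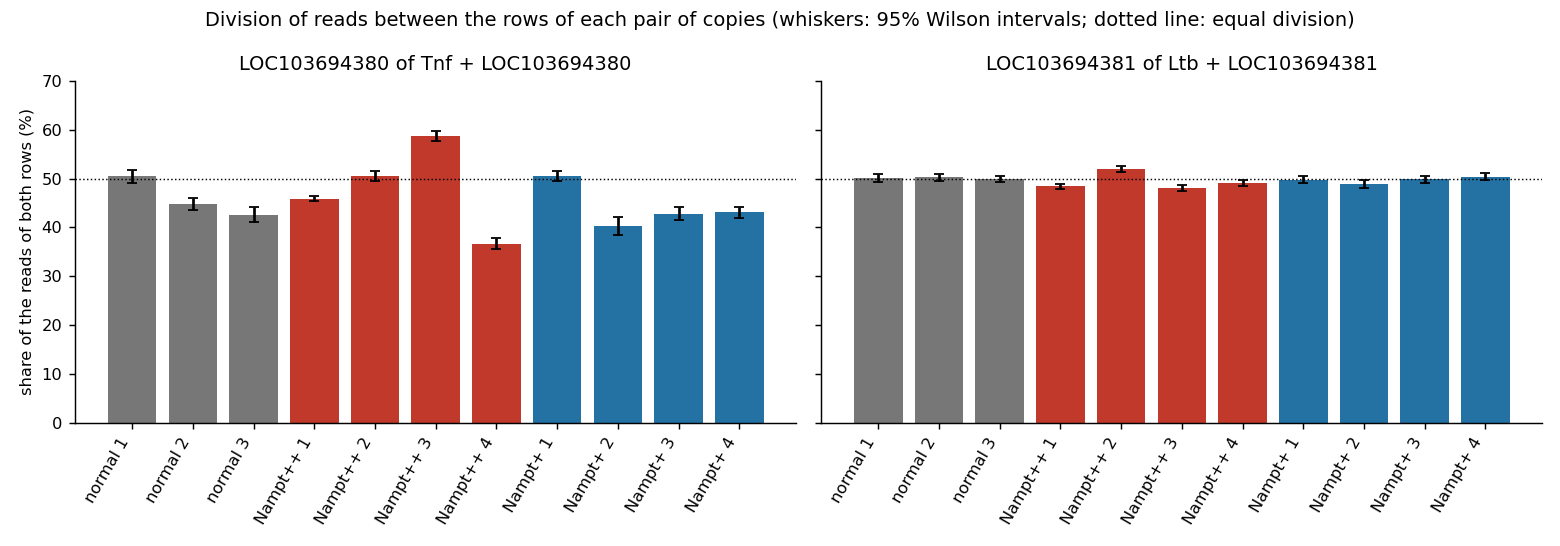
Percent of the reads of both rows assigned to LOC103694380 (left, with Tnf) and to LOC103694381 (right, with Ltb) in each sample. Whiskers are 95% Wilson intervals and the dotted line marks equal division; the left shares run from 36.7% to 58.7% and the right ones from 48.0% to 52.0%.

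Neither lymphotoxin differed between groups beyond the spread between rats. Ltb, the membrane anchor of the lymphotoxin heterotrimer, had an FPKM of 87.3, 93.2 and 127 in normal, 255, 94.6, 122 and 138 in Nampt++ and 86.3, 84.2, 112 and 102 in Nampt+ samples. The Nampt++ sample of rat 1 again stood apart, and the other Nampt++ samples lay within or close above the normal range. The log2 fold change was 0.52 (SE 0.31; edgeR, p = 0.133; exact permutation test, p = 0.229) between Nampt++ and normal and -0.01 (SE 0.25) between Nampt+ and normal samples. It was -0.52 (SE 0.30; edgeR, p = 0.119; exact permutation test, p = 0.0857) between Nampt+ and Nampt++ samples. As with Tnf, the level was lower at Nampt+ status in all 4 rats. Summing Ltb with LOC103694381 gave log2 fold changes of 0.49, -0.03 and -0.50. The summed FPKM was 472 at Nampt++ and 164 at Nampt+ status in rat 1, 187 and 157 in rat 2, 224 and 212 in rat 3, and 257 and 196 in rat 4, so most of the difference came from rat 1.

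Lta, the soluble lymphotoxin made mostly by activated lymphocytes, was near the limit of the filter, with 91 to 655 reads per sample. Its FPKM was 1.87, 2.12 and 2.25 in normal, 0.942, 1.40, 2.63 and 1.55 in Nampt++ and 1.15, 0.984, 5.25 and 0.791 in Nampt+ samples. The Nampt+ sample of rat 3 was the highest of all, while the other 3 Nampt+ samples lay below every normal sample. The log2 fold changes were -0.38 (SE 0.42) between Nampt++ and normal, -0.12 (SE 0.61) between Nampt+ and normal and 0.28 (SE 0.59) between Nampt+ and Nampt++ samples. Without the Nampt+ sample of rat 3 the last of these turned to -0.49 and the second became -0.89.

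Tnfsf13b (BAFF) had a mean FPKM below 1 and was not tested. It had 0 to 98 reads per sample, with an FPKM of 0.281, 0.209 and 0.260 in normal, 0.130, 0.534, 0.244 and 0.659 in Nampt++ and 0.475, 0.0892, 0 and 0.458 in Nampt+ samples. The groups overlapped throughout, and no difference was detectable at this level.

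**Figure D4:**
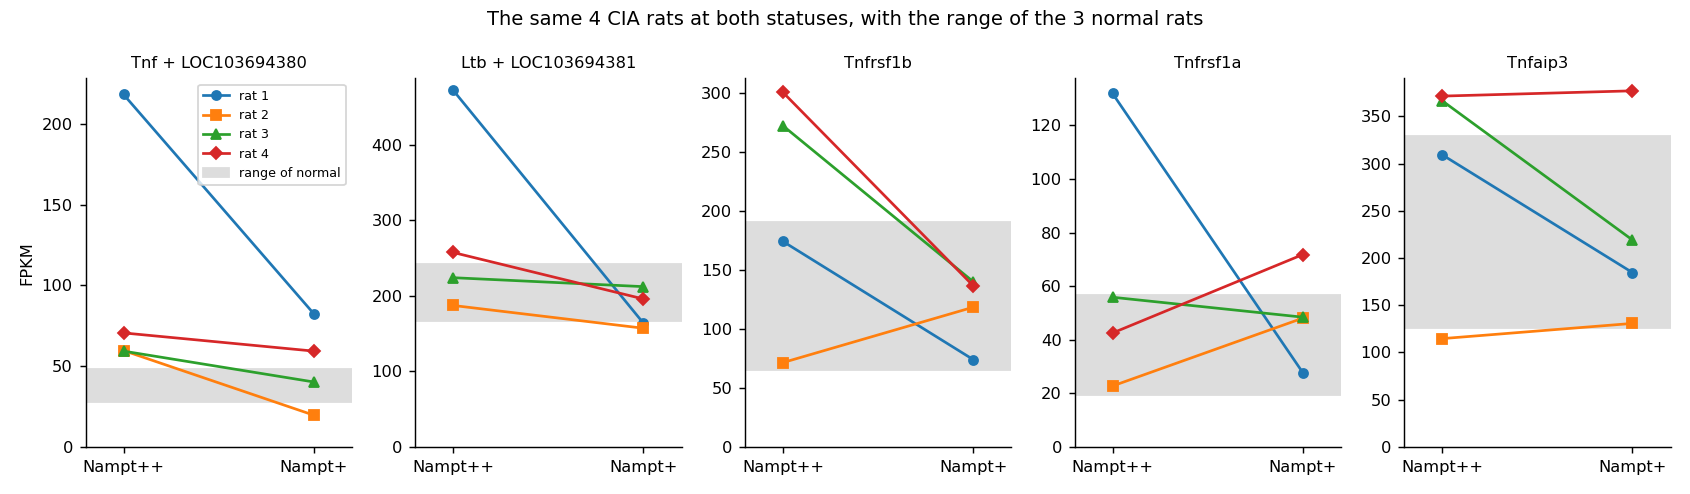
FPKM (vertical axes from 0) of the same 4 CIA rats at Nampt++ and Nampt+ status, joined by a line per rat, with the range of the 3 normal samples shaded. Tnf and Ltb, each summed with its copy, stand lower at Nampt+ status in all 4 rats, Tnfrsf1b in 3, and Tnfrsf1a and Tnfaip3 in 2.

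Neither receptor differed between groups beyond the spread between rats. Tnfrsf1a (TNFR1; chr4:157864969-157877633) had an FPKM of 33.5, 56.9 and 19.5 in normal, 132, 22.7, 55.9 and 42.5 in Nampt++ and 27.7, 48.1, 48.4 and 71.8 in Nampt+ samples. The Nampt++ group held the highest value and a value near the lowest, and the groups overlapped. The log2 fold change was 0.57 (SE 0.65) between Nampt++ and normal samples but -0.03 once rat 1 was left out of the Nampt++ group. Between Nampt+ and Nampt++ samples it was -0.19 (SE 0.51), with 2 of 4 rats lower, and it was 0.37 (SE 0.56) between Nampt+ and normal samples.

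Tnfrsf1b (TNFR2; chr5:163136390-163167299) had an FPKM of 75.9, 190.2 and 65.5 in normal, 174, 71.4, 272 and 300.2 in Nampt++ and 74.0, 118, 139.9 and 136 in Nampt+ samples. Rats 3 and 4 at Nampt++ status had more than any normal or Nampt+ sample, while rat 2 at the same status was close to the lowest. The log2 fold change was 0.65 (SE 0.62; edgeR, p = 0.325; exact permutation test, p = 0.286) between Nampt++ and normal and 0.03 (SE 0.57) between Nampt+ and normal samples. Between Nampt+ and Nampt++ samples it was -0.61 (SE 0.43; edgeR, p = 0.195; exact permutation test, p = 0.229), with 3 of 4 rats lower. A single control decided the first of these, since with normal rat 2 left out it was 1.61 and the gene was called (edgeR, adjusted p = 0.546). Leaving out that rat also raised the count of all genes called from 77 to 462. Between Nampt+ and Nampt++ samples the gene was called with rat 2 left out of the Nampt++ group, at -0.86 (edgeR, adjusted p = 0.918). The count of all genes called there rose from 72 to 163. The ratio of Tnfrsf1b to Tnfrsf1a FPKM spread from 1.32 to 7.06 in Nampt++ samples, beyond the 2.26 to 3.36 of normal and the 1.9 to 2.89 of Nampt+ samples on both sides.

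Across samples, on log2(FPKM + 1), Tnfrsf1a had a Pearson r of 0.94 with the summed neutrophil markers (Spearman 0.85; 0.86 without the 2 samples farthest from the median of the marker sum) and Tnfrsf1b one of 0.66 (Spearman 0.63). On linear FPKM these were 0.96 and 0.33. S100a8 and S100a9 made up 94.1% to 96.2% of that sum, and without them r was 0.95 for Tnfrsf1a and 0.68 for Tnfrsf1b on log2(FPKM + 1). For the sum of Tnf and LOC103694380, r with the neutrophil sum was 0.41 on log2(FPKM + 1) (Spearman 0.07; -0.45 without the 2 farthest samples) and 0.81 on linear FPKM, where the Nampt++ sample of rat 1 is far above all others on both axes. The monocyte sum was 93.1% to 98.2% Lyz2, the lysozyme gene, which neutrophils also express. On log2(FPKM + 1) it had an r of 0.80 with Tnfrsf1a and 0.84 with Tnfrsf1b, but without Lyz2 the other 5 markers gave -0.09 and 0.43. These are descriptions of 11 samples from 7 rats, in which all FPKM values share the sample's total, and the part of the cell mixture in the differences between groups was not tested.

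**Figure D5:**
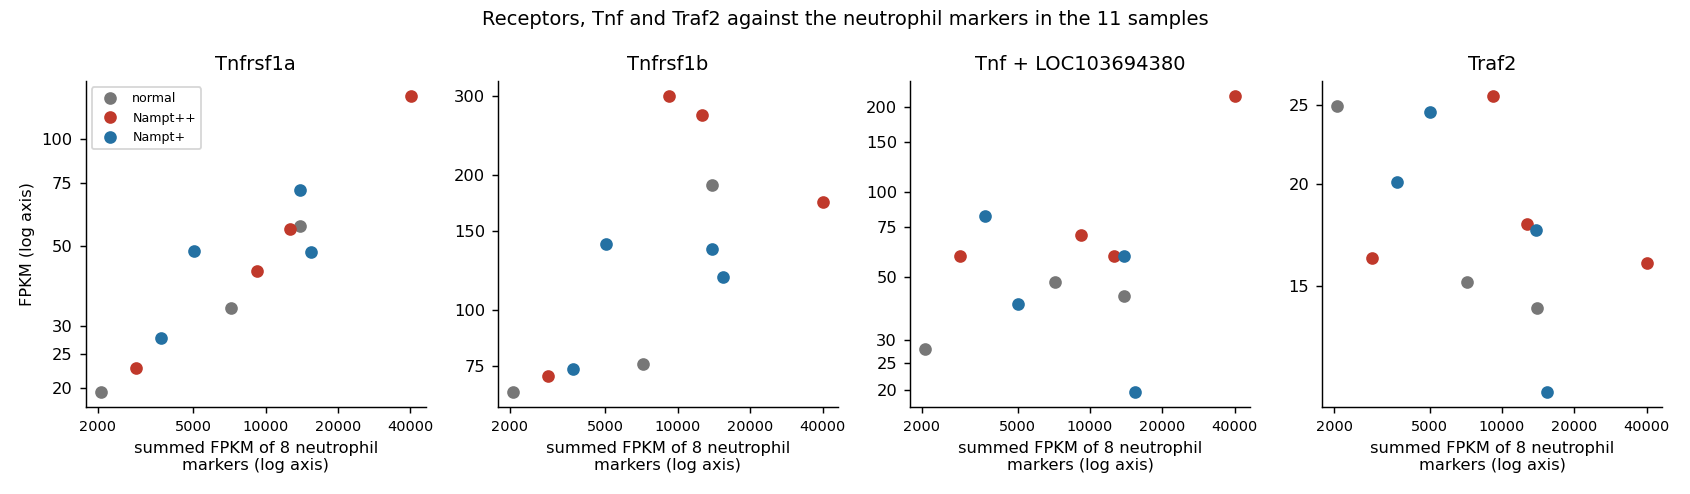
FPKM of Tnfrsf1a, Tnfrsf1b, Tnf summed with its copy, and Traf2 (vertical log axes) against the summed FPKM of the 8 neutrophil markers (horizontal log axis) in the 11 samples, coloured by group. On log2(FPKM + 1), r with the marker sum is 0.94 for Tnfrsf1a, 0.66 for Tnfrsf1b and 0.41 for the Tnf sum; the rightmost point in each panel is the Nampt++ sample of rat 1.

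Tnfaip3, which encodes the feedback inhibitor A20 (chr1:14402913-14412807), was abundant in all groups, and no difference between them passed the test. Its FPKM was 211, 329 and 126 in normal, 309, 115, 367 and 371 in Nampt++ and 185, 131, 219 and 377 in Nampt+ samples. The highest value belonged to rat 4 at Nampt+ status and the lowest to rat 2 at Nampt++ status. The ranges of both statuses overlapped almost throughout, while the median was 338 in Nampt++ and 202 in Nampt+ samples. The log2 fold change was 0.18 (SE 0.53), -0.12 (SE 0.47) and -0.29 (SE 0.34) in the comparisons of Nampt++ with normal, Nampt+ with normal and Nampt+ with Nampt++. On log2(FPKM + 1), Tnfaip3 had an r of 0.89 with the monocyte sum (Spearman 0.85), which is nearly all Lyz2, and of 0.43 with the other 5 monocyte markers. Its r with Tnfrsf1b was 0.82.

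Of the adaptors, Traf1 varied widely between rats and Traf2 little. Traf1 (chr3:14003340-14022672), itself an NF-kappa B target, had an FPKM of 8.26, 42.7 and 6.85 in normal, 26.1, 10.6, 45.2 and 43.5 in Nampt++ and 15, 37.1, 26.5 and 14.1 in Nampt+ samples. Normal rat 2 was far above the other normal rats and close to the highest CIA samples. The log2 fold change was 0.39 (SE 0.81) between Nampt++ and normal, 0.30 (SE 0.90) between Nampt+ and normal and -0.09 (SE 0.59) between Nampt+ and Nampt++ samples. With normal rat 2 left out, the first was 2.13 (edgeR, adjusted p = 0.546) and the second 2.04 (edgeR, adjusted p = 0.988), and both were called on their unadjusted p. The counts of all genes called then also rose, from 77 to 462 and from 56 to 136. On log2(FPKM + 1), Traf1 had an r of 0.88 with Tnfrsf1b (Spearman 0.87; 0.83 without the 2 farthest samples) and of -0.82 with the summed B cell markers.

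Traf2 (chr3:2746075-2770620), which recruits the ubiquitin ligases of the receptor complex, had an FPKM of 15.2, 14.1 and 24.9 in normal, 16.0, 16.2, 17.9 and 25.7 in Nampt++ and 20.1, 11.1, 24.5 and 17.6 in Nampt+ samples. The group means of 18.1 ± 5.97 (SD, n = 3), 18.9 ± 4.57 (SD, n = 4) and 18.3 ± 5.60 (SD, n = 4) were close together. The log2 fold changes were 0.06 (SE 0.18), 0.06 (SE 0.18) and 0.01 (SE 0.16), and the sign of the first and the last depended on the scaling, filter or tool.

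The rest of the pathway was read from 6 lists of 73 genes, of which 72 were in the table and 69 were tested. None of the 69 was called by edgeR in any of the 3 comparisons, against 0.686%, 0.497% and 0.642% of all genes. At an unadjusted edgeR p under 0.05 there were 2 between Nampt++ and normal samples, against 176 of all 11219 genes tested. There was 1 between Nampt+ and normal samples, against 98 of 11269, and 1 between Nampt+ and Nampt++ samples, against 256 of 11219. The median log2 fold change of the 69 was 0.15, -0.01 and -0.16 in these comparisons, beside 0.00 over all genes in each. Of the 69, 44, 34 and 20 were fitted higher in the first-named group. Leaving out normal rat 2 raised the count called between Nampt++ and normal samples to 12 of the pathway genes and 462 of all genes.

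The genes past an unadjusted p of 0.05, named after their values were seen, were Tnfsf13 and Zfp36l2. Tnfsf13 (APRIL, a ligand related to BAFF) had an FPKM of 10.2, 13.1 and 16.7 in normal, 24.0, 21.0, 19.6 and 28.0 in Nampt++ and 20.6, 12, 19.97 and 25.9 in Nampt+ samples. Every Nampt++ sample lay above every normal sample, with a log2 fold change of 0.75 (SE 0.20; edgeR, adjusted p = 0.9999) and a ratio of means below 2. In FPKM these groups did not overlap in 2 of the 69 genes, Tnfsf13 and Ltbr, and in 1.1% of all genes. Between Nampt+ and normal samples Tnfsf13 overlapped, with a log2 fold change of 0.55 (SE 0.21; edgeR, unadjusted p = 0.0311). Zfp36l2, a relative of the tristetraprolin that destabilises Tnf mRNA, had a log2 fold change of -0.66 (SE 0.27; edgeR, adjusted p = 0.9999) between Nampt++ and normal and 0.76 (SE 0.28; edgeR, adjusted p = 0.9996) between Nampt+ and Nampt++ samples. Its mean FPKM was 53.9 in Nampt++, 85.0 in normal and 91.8 in Nampt+ samples. The groups overlapped in each comparison. Its FPKM was 104, 57.2 and 94.0 in normal, 45.8, 42.7, 74.1 and 53.1 in Nampt++ and 76.8, 45.1, 88.3 and 157 in Nampt+ samples.

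By list, the 21 tested target genes of TNF had a median log2 fold change of 0.30, -0.13 and -0.26 in the 3 comparisons. Over all genes tested it was 0.00 in each. Between Nampt++ and normal samples 14 were fitted higher and 7 lower. The largest shifts were downward, in Ier3 (-1.56, SE 1.01), Il6 (-1.46, SE 0.89), Ptgs2 (-1.04, SE 0.74) and Cxcl2 (-1.03, SE 0.79), none past the test. Il6 was near the limit of the filter, with mean FPKMs of 1.60 in Nampt++ and 3.59 in normal samples. In Nampt+ against Nampt++ samples 19 of the 21 were fitted lower, none past the test, and Csf1 (0.55) and Cxcl2 (0.41) higher. Nfkbia, the inhibitor of NF-kappa B, had mean FPKMs of 1311 and 2137 at Nampt+ and Nampt++ status, with a log2 fold change of -0.43 (SE 0.60). Ccl2, a monocyte chemokine and the lowest of the list there, had 42.1 and 89.0, with -0.97 (SE 0.67). The 8 genes of the cell death branch had medians of 0.40, -0.07 and -0.34. The 19 genes of the receptor complex and its kinases had medians of 0.06, 0.05 and 0.00, and the 8 tested deubiquitinases and partners had 0.15, -0.02 and -0.11. The 6 tested genes of Tnf release and mRNA decay had 0.00, 0.03 and -0.19, among them Adam17, the enzyme that sheds TNF, at 0.63 in the first. Of the 7 related ligands and receptors the medians were 0.24, 0.14 and 0.00.

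The genes most like the Tnf sum on log2(FPKM + 1) across the 11 samples, of 4922 with a mean FPKM of at least 10, were Map7d1 (Pearson r = 0.91, Spearman 0.73), Mbd2 (0.87, 0.71), Ltbr (0.86, 0.84), Unc93b1 (0.86, 0.72) and Gnb2 (0.85, 0.50). All 5 were highest in the Nampt++ sample of rat 1. Without the 2 samples farthest from the median of the Tnf sum, r was 0.63 for Map7d1, 0.48 for Ltbr and at most 0.33 for the others, so the likeness rested largely on these samples. Ltbr encodes the receptor of the lymphotoxin heterotrimer, and its FPKM of 45.0 in the Nampt++ sample of rat 1 compared with at most 12.3 elsewhere.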

How the data were processed

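WBC RNA of 11 samples (4 Nampt++, 4 Nampt+, 3 normal) was poly(A)-selected after 5 min lysis of red cells and TRIzol extraction and sequenced in paired reads by the authors. The submitters' processing notes name cutadapt 1.9, HISAT2 2.0.4 and StringTie 1.3.4. The genome build and the counting of reads shared by copies are not given in the sources used here. The deposited counts are whole reads per gene, not normalized; the deposited FPKM values are scaled by length and by the sample's total, and 0.0001 stands for 0. Columns of annotation were used only for names and positions.

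Counts were compared a pair of groups at a time with edgeR 4.0.16 (R 4.3.3; quasi-likelihood, TMM) on genes whose mean FPKM was 1 or more, with Benjamini-Hochberg adjustment over all of them. Summed rows were tested in place of the single ones. Exact permutation tests used log2(FPKM + 1), two-sided, and the smallest p they can give is 0.0286. Alternatives were upper quartile and RLE scaling, no filter or a mean FPKM of at least 10, DESeq2 1.42.0, limma 3.58.1 with pseudocounts of 1 and 0.1, haemoglobin genes left out, all groups in 1 fit, the fold from the fitted difference, a replicate block and leaving out each sample. The fits were tested on simulated data. Ltb summed with LOC103694381, and correlations on linear FPKM or without the leading marker genes, were added after the data were seen.

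The members and lists were chosen with earlier results of these data known. Named were all members and any pathway gene called, and none was. Tnfsf13, Zfp36l2, Nfkbia, Ccl2, Ier3, Il6, Ptgs2, Cxcl2, Csf1 and Adam17 were named after their values were seen. Same-numbered Nampt++ and Nampt+ samples were taken as one rat, because their codes in the labels share the CIA number and the authors sampled the same rats. No label states the match outright. Over genes, their deviations from the group means correlated at only -0.27, -0.24, 0.24 and 0.08. Controls share only numbers. Samples of a group are separate rats. Within groups, samples differed beyond counting error (lowest chi-square per degree of freedom 245) and correlated at 0.961 to 0.988, so none was a duplicate. Groups follow the labels, and only the RNA-seq data were used.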

Additional observations from a re-analysis of the deposited data

Results flagged for a closer look

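In 24 groups of 4 samples examined (the 10 genes and the sums of Tnf and Ltb with their copies, in both CIA groups), 3 held a sample far from the other 3 by Dixon's criterion, which flags about 1 in 20 groups by chance. The Nampt++ sample of rat 1 stood above the rest for LOC103694380, at an FPKM of 100.5, and for its sum with Tnf, at 218, which are not separate observations. The Nampt+ sample of rat 3 stood above the rest for Lta, at 5.25. The Nampt++ sample of rat 1 was also the one with the lowest share of haemoglobin counts (6.84%) and the highest sum of neutrophil markers (40034 FPKM); the part of these in its Tnf level was not tested.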

How the results depend on the processing

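No gene among the 10 was called between Nampt+ and normal samples under any alternative other than leaving out a sample. Between Nampt++ and normal samples the number called was 2 with no filter, DESeq2, limma on log2(FPKM + 1) or all 3 groups in 1 fit. It was 1, LOC103694380, with limma on log2(FPKM + 0.1). The 2 were Tnf and LOC103694380, rows that could share reads. In the order named, 306, 121, 145, 87 and 140 of all genes were called, against 77 in the main fit. The Tnf sum was called there at a log2 fold change of 1.16 with upper quartile scaling, 1.25 with no filter, 1.24 with DESeq2, 1.13 and 1.15 with limma at pseudocounts of 1 and 0.1, and 1.22 with all 3 groups in 1 fit. Between Nampt+ and Nampt++ samples the number called was 1, LOC103694380, with DESeq2 and with limma on log2(FPKM + 1). It was 0 with limma on log2(FPKM + 0.1). Of all genes 104, 91 and 85 were called in these settings, against 72 in the main fit. The sum was called at -1.01 with DESeq2. With the replicate block for the rat, 1 gene was called in edgeR and in limma, and the sum was -0.86 and -0.94; the block changed the call of no other gene among the 10.

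Leaving out each sample gave 0 to 2 genes called between Nampt++ and normal, 0 to 1 between Nampt+ and normal and 0 to 1 between Nampt+ and Nampt++ samples, and a Tnf sum of 0.60 to 1.48, -0.094 to 0.48 and -1.297 to -0.36. The genes called without 1 sample were, between Nampt++ and normal, Traf1 and Tnfrsf1b without normal rat 2, Tnf without the Nampt++ sample of rat 3 and LOC103694380 without that of rat 4. Between Nampt+ and normal samples it was Traf1 without normal rat 2. Between Nampt+ and Nampt++ samples they were Tnfrsf1b, Tnf (-1.19) and LOC103694380 (-1.3) on leaving out Nampt++ rats 2, 3 and 4 in turn, and LOC103694380 (-1.46) without the Nampt+ sample of rat 1. The range without 1 sample crossed 0 between Nampt++ and normal samples for Tnfrsf1a (-0.025 to 1.301), Tnfaip3 (-0.19 to 0.84), Traf1 (-0.073 to 2.13) and Traf2 (-0.031 to 0.155). Between Nampt+ and normal samples it crossed 0 for Tnf (-0.024 to 0.55), LOC103694380 (-0.23 to 0.41), Tnfrsf1a (-0.020 to 1.11), Tnfrsf1b (-0.34 to 0.99), Tnfaip3 (-0.49 to 0.54), Traf1 (-0.51 to 2.04), Traf2 (-0.041 to 0.146), Lta (-0.89 to 0.17), Ltb (-0.24 to 0.12) and Ltb with its copy (-0.24 to 0.11). Between Nampt+ and Nampt++ samples it crossed 0 for Tnfrsf1a (-0.49 to 0.40), Traf1 (-0.89 to 0.20), Traf2 (-0.084 to 0.086) and Lta (-0.49 to 0.63).

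Other alternatives also turned the sign of some log2 fold changes, none of them past the test. Traf2 between Nampt++ and normal samples was -0.0017 with upper quartile scaling and -0.00046 with a mean FPKM of at least 10. Between Nampt+ and Nampt++ samples it was -0.015 with no filter, -0.0057 without haemoglobin genes, -0.070 and -0.075 with limma at pseudocounts of 1 and 0.1, and -0.070 with the replicate block in limma. Tnfaip3 between Nampt+ and normal samples was 0.035 with limma at either pseudocount, and Ltb was 0.0036 with RLE scaling, 0.0035 with DESeq2 and 0.0027 with all 3 groups in 1 fit. Lta between Nampt+ and Nampt++ samples, at 0.28 in the report, was -0.031 with limma at a pseudocount of 0.1. The cause of these shifts was not tested. The count of all genes called ran from 25 (mean FPKM of at least 10) to 306 (no filter) between Nampt++ and normal, from 14 to 261 between Nampt+ and normal and from 19 to 295 between Nampt+ and Nampt++ samples, and without 1 sample from 53 to 462, 49 to 136 and 58 to 165. Among pathway genes 1 was called with no filter between Nampt+ and Nampt++ samples, and without 1 sample 0 to 12, 0 to 2 and 0 to 3 were called in these comparisons. Only Lta and Tnfsf13b had few enough reads for depth to limit their values; for the other genes the number of rats does.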

Other observations

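Ratios of the genes within a sample do not depend on the sample's total. Tnfaip3 FPKM was 1.42 to 7.65 times the Tnf sum, with means of 5.52 ± 1.85 (SD, n = 3) in normal, 3.69 ± 2.38 (SD, n = 4) in Nampt++ and 5.17 ± 2.02 (SD, n = 4) in Nampt+ samples, so the inhibitor's transcript was the more abundant in all 11 samples. Ltb with its copy was 1.99 to 8.63 times the Tnf sum, highest in normal rat 3. Tnf FPKM was 7.13 to 12.7 times that of Lta in normal samples, 9.30 to 125 times in Nampt++ samples and 4.37 to 42.6 times in Nampt+ samples. The ratio of Traf2 to Traf1 ran from 0.330 to 3.64 in normal samples alone, which covers the 0.300 to 1.53 of the CIA samples but for its lowest value. None of these ratios was tested.

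Ltb and the summed erythroid markers, 97.8% to 98.7% of which was Hbb, moved in opposite directions across the 11 samples (on log2(FPKM + 1), Pearson r = -0.83, Spearman -0.85; -0.72 without the 2 samples farthest from the median of the marker sum), in values that share the sample's total. With haemoglobin genes left out of the counts, the log2 fold change of the Tnf sum was 1.24 between Nampt++ and normal samples and -1.01 between Nampt+ and Nampt++ samples.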
